A study of Sus scrofa with 2 samples.

Results

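The 7 genes described here take part in the control of glycolysis, in its reactions, in the start of glycogen or in glucose uptake in pig back muscle: PFKFB3, PKM, TPI1, GAPDH, ENO3, GYG1 and TRARG1. They were taken by symbol from a table of 27987 entries, each symbol sat on 1 entry, and all 7 were among the 13191 entries with a mean of at least 1 RPKM (reads per kilobase of gene, scaled to library size). They were singled out with earlier results of these data known, which showed a high or low ratio or a very high level for most of them. Their values are therefore a description and carry no test. The tissue was longissimus dorsi, a long back muscle, of DLY barrows (castrated males from Duroc boars and Yorkshire-Landrace sows) of 79.0 ± 1.5 kg. The control arm of 8 pigs lived at a constant 22 °C and the heat arm of 8 pigs at a constant 30 °C, both for 21 days. Each arm is represented by 1 messenger RNA library, and the labels do not say whether RNA of several pigs went into it. Temperature, pigs, handling and library therefore cannot be told apart, and no difference below has a replicate check.

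Skeletal muscle takes up glucose through the transporter GLUT4, which insulin and contraction bring to the surface in vesicles, and either stores it as glycogen or breaks it down to pyruvate in glycolysis. Fast fibres, which dominate the back muscle of pigs, hold glycolytic enzymes in very large amounts, and much of their pyruvate becomes lactate. The flow is set mainly at the phosphofructokinase step, where fructose-2,6-bisphosphate, made and removed by the PFKFB enzymes, is a strong activator.

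The libraries held 23608242 (control) and 22863584 (heat) reads, as recovered from the deposited RPKM values. Muscle identity was plain in both, with the 8 measured fast fibre markers summing to 76166 and 73326 RPKM and the 6 measured slow fibre markers to 5519 and 6584. Over all genes the median log2 ratio was 0.05 and 95% of genes lay between -0.57 and 0.66, where a log2 ratio is log2((heat RPKM + 1)/(control RPKM + 1)). The added 1 shrinks the ratio of low genes. A log2 ratio above 0 was found for 58.8% of all genes. Fibroblast markers had 3 of 8 above 0 and a median of -0.14, from PDGFRA (-0.33) to DPP4 (0.31). Endothelial markers had 4 of 5 above 0 (0.05, from KDR at -0.11 to TEK at 0.27) and macrophage markers 2 of 5 (-0.01, from MRC1 at -0.22 to LYZ at 1.04). Of red blood cell markers only HBB was measured (0.32). In bulk muscle, fewer cells of a type and less RNA per cell cannot be told apart.

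The 7 genes spanned the whole range of muscle expression and had no common direction. PFKFB3 was 2.24-fold higher in the heat library, PKM and TPI1 were lower by 21.1% and 20.4%, ENO3 was lower by 5.06%, GAPDH differed by 1.47%, GYG1 was higher by 12.6%, and TRARG1 was at 0.188 of its control level. Of the 7, 1 was at least 2-fold higher on the log2(RPKM + 1) scale, against 0.629% of all genes, and 1 at least 2-fold lower, against 0.584%. These genes were chosen on that same contrast, so nothing is read from the counts. Ordered by RPKM, which is a level per length, both libraries gave the same sequence: GAPDH, ENO3, PKM, TPI1, GYG1, PFKFB3, TRARG1. The closest neighbours in that order were PKM and TPI1, with a PKM to TPI1 ratio of 1.15 in control and 1.14 in heat.

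**Figure D1:**
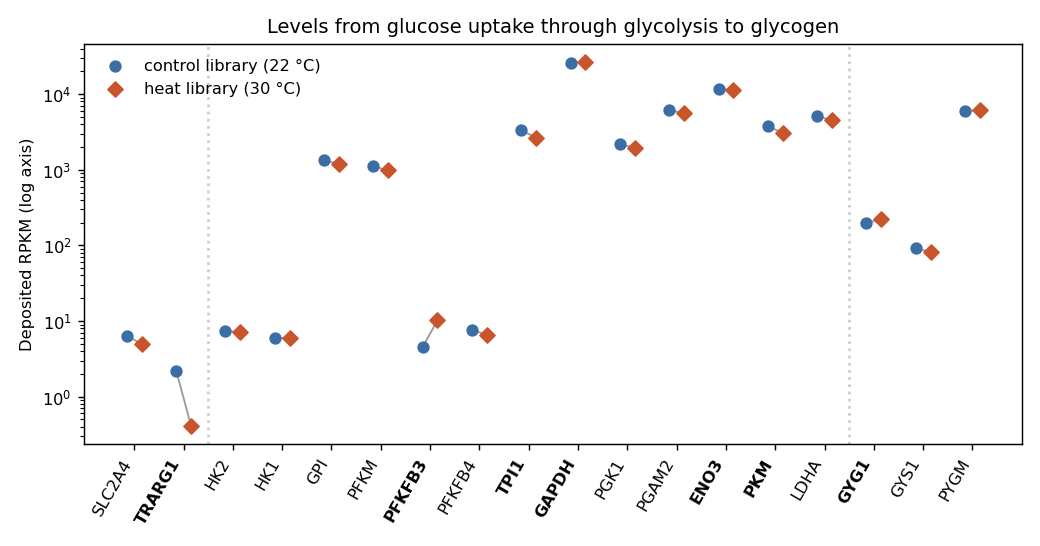
Deposited RPKM (log axis) of genes from glucose uptake (left), through glycolysis to lactate (middle), to glycogen (right), 1 point per library, with the 7 genes in bold. PFKFB3 and TRARG1 show wide gaps between the libraries, in opposite directions, while GAPDH stands highest in both, at 26043 and 26426 RPKM.

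PFKFB3 (ENSSSCG00000011133) encodes the inducible 6-phosphofructo-2-kinase that makes fructose-2,6-bisphosphate. It read 4.56 RPKM at 22 °C and 10.21 RPKM at 30 °C, which rest on at least 215 and 466 reads (the shortest gene length that gives whole reads is 1996 bp). The heat library was the higher one, 2.24-fold, and counting error alone gives a 95% interval of 1.90 to 2.64 (log2 ratio 1.01). Its ratio ranked 81st from the top of 13191 genes. Among the 6350 genes with a mean of 2 to 10 RPKM, 95% had a log2 ratio between -0.60 and 0.66, and PFKFB3 lay outside that range. PFKFB3 was chosen on this contrast, so nothing is read from its rank or from its place outside that range. The 2-fold call is narrow, since centring on the median of all genes gave a log2 ratio of 0.96 and a pseudocount of 5 gave 0.67.

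None of the 2 measured paralogs of PFKFB3 was 1.5-fold apart. Over all genes only 3.44% were that much higher and 2.37% lower, so nothing is read from this count. PFKFB4, a second inducible isoform, was at 7.69 RPKM in control and 6.55 in heat, with a counting interval of the ratio from 0.722 to 1.004. PFKFB2, the isoform known from heart, was at 1.19 and 1.32 RPKM, from as few as 15 and 16 reads, too few to narrow its ratio beyond 0.510 to 2.39. PFKFB1, the isoform known from liver and muscle, was below the level filter, at 0.498 and 0.129 RPKM. PFKFB4 was thus the highest of the family in control and PFKFB3 in heat. Whether PFKFB3 and its paralogs differ in their response was not tested.

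Genes that oppose the PFKFB3 signal or its target step differed little. TIGAR, a fructose-2,6-bisphosphatase, was at 3.63 and 3.89 RPKM. FBP2, the muscle fructose-1,6-bisphosphatase that runs the step backwards, was at 289 and 280 RPKM. Across the 5 measured genes of fructose bisphosphate control (7 listed, 6 matched), 3 had a log2 ratio above 0 and 2 below, with a median of 0.08. PFKFB3 itself is among those above 0, where 58.8% of all genes lay. PFKM, the muscle phosphofructokinase and target of the activator, was lower in heat, at 1109 and 979.5 RPKM. Its ratio was 0.883 (0.872 to 0.894, log2 ratio -0.18). PFKFB3 messenger thus amounted to 0.411% of the PFKM level in control and 1.04% in heat, per length.

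PKM (ENSSSCG00000001930) encodes the muscle pyruvate kinase, the last enzyme of glycolysis. It read 3834 RPKM at 22 °C and 3026 RPKM at 30 °C, from no fewer than 210173 and 160671 reads. The ratio was 0.789, between 0.784 and 0.795 by counting error (log2 ratio -0.34). TPI1 (ENSSSCG00000000685), triose-phosphate isomerase, interconverts the 3-carbon sugars formed by aldolase. It was at 3322 and 2645 RPKM, from no fewer than 99362 and 76607 reads, a ratio of 0.796 (0.789 to 0.804, log2 ratio -0.33). For both enzymes the heat library was the lower one by nearly the same proportion. Among the 141 genes with a mean of at least 500 RPKM, PKM had the 5th lowest ratio and TPI1 the 6th. The 4 genes below PKM were all at least 2-fold lower. The range that holds 95% of the log2 ratios of those genes is -0.80 to 0.34. Its lower end falls between those 4 genes and PKM itself. That both enzymes lie inside it thus follows from their ranks, and nothing more is read from it. The counting intervals are narrow because the reads are many. They cover counting error only and say nothing of the spread between pigs.

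GAPDH (ENSSSCG00000000694), glyceraldehyde-3-phosphate dehydrogenase, was the most abundant of the 7 and the 3rd highest gene of the table in both libraries. It was at 26043 RPKM in control and 26426 in heat, 3.64% and 3.78% of summed RPKM. Its log2 ratio of 0.02 lay near the median of all genes and its sign turned with scaling, at -0.03 when centred on that median and 0.06 when rescaled without the 10 highest genes. ENO3 (ENSSSCG00000017904), the muscle enolase, was at 11785 and 11189.5 RPKM, from no fewer than 400933 and 368655 reads. Its ratio of 0.949 (0.945 to 0.954) corresponds to a log2 ratio of -0.07, the 46th lowest of the 141 highly expressed genes. GAPDH held the 75th place there. Both enzymes were thus well inside the range of highly expressed genes in these libraries. Reads of GAPDH and TPI1 could be shared with near-identical pseudogenes, depending on how reads were counted, which the labels do not state.

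GAPDH is often used as a reference gene, and the other enzymes are given against it. PKM amounted to 14.7% of the GAPDH level in control and 11.5% in heat. TPI1 went from 12.8% to 10.01% and ENO3 from 45.3% to 42.3%. Against ACTA1, skeletal muscle actin, ENO3 stood at 17.1% and 17.2%, and GAPDH at 37.9% and 40.5%. The share of PKM was lower in heat against either reference, by 22.2% against GAPDH and by 16.8% against ACTA1, while the shares of ENO3 differed by 6.43% and 0.0833%. ENO3 was lower by 5.06% in RPKM, so ACTA1 itself was lower in heat by nearly the same proportion.

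**Figure D2:**
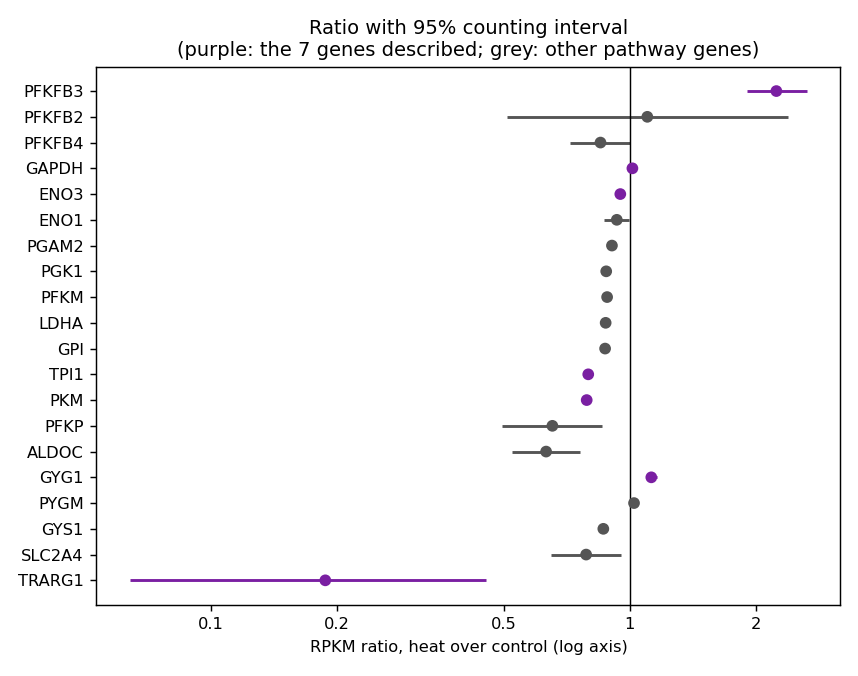
RPKM ratio of heat over control (log axis), with lines for the 95% counting interval from recovered reads, for the 7 genes (purple) and other pathway genes (grey). PFKFB3 stands to the right at 2.24, TRARG1 to the left at 0.188 with a wide interval, and most abundant enzymes lie between 0.789 and 0.949.

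Most other enzymes of glycolysis were lower too, with only the minor isoforms ALDOC and PFKP below PKM and TPI1. Of 26 listed enzymes 21 were matched and 18 measured, 13 of them with a log2 ratio below 0 (72.2%) against 41.2% of all genes, while 58.8% of all genes were above 0. The counting interval lay below 1 for 10 of the 18 and above 1 for GAPDH alone, against 10.6% and 20.6% of genes read in both libraries, and genes with many reads pass that limit at small ratios. Their median was -0.12, with none 1.5-fold apart once the pseudocount of 1 is added, against 3.44% of all genes 1.5-fold higher and 2.37% lower. As plain RPKM ratios, ALDOC (0.632) and PFKP (0.654) passed that fold. Centred on the median of all genes, 15 were below 0 and 3 above, in place of 13 and 5. The list contains 4 of the 7 genes, and without them 10 of 14 were below 0 with the same median of -0.12. At a mean of at least 500 RPKM, 7 of 8 enzymes were below 0, against 44% of the 141 genes at that level, and GAPDH was the exception. Fast fibre markers, which mark the fibres richest in these enzymes, had 5 of 8 below 0 and a median of -0.09, from PVALB (-1.26) to MYOZ1 (0.15). Slow fibre markers had 5 of 6 above 0 and a median of 0.22, from MYH7B (-0.34) to CSRP3 (0.87). The part of fibre make-up in the enzyme ratios was not tested.

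RPKM was also summed over the isoenzymes of each step. With several genes matched, 1 gene dominated phosphofructokinase, glyceraldehyde-3-phosphate dehydrogenase, phosphoglycerate mutase and enolase. In hexokinase HK2 made only 38.7% in control and 36.7% in heat. GPI, ALDOC, TPI1, PGK1 and PKM were each the only gene matched for their step, so their share is fixed. Hexokinase, which traps glucose in the cell, was low, at 19.1 RPKM in control and 19.6 in heat over 5 genes, led by HK2 at 7.38 and 7.18. Glucose-6-phosphate isomerase, GPI, was at 1351 and 1179.7 RPKM. Phosphofructokinase summed to 1119 and 987 RPKM, of which PFKM made 99.1% and 99.2%. These first enzymes after hexokinase had log2 ratios of -0.20 (GPI) and -0.18 (PFKM).

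The minor phosphofructokinases PFKL and PFKP were at 5.66 and 4.65 RPKM and at 4.46 and 2.91 RPKM. PFKP, the platelet isoform, had a counting interval from 0.495 to 0.860, and that of PFKL held 1. For aldolase only ALDOC, the brain isoform, was measured, at 8.65 and 5.46 RPKM, the lowest log2 ratio of the list at -0.58. ALDOA, the main muscle aldolase, is not analysed here, so that step cannot be set beside the others.

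In the lower part of the pathway, phosphoglycerate kinase PGK1 was at 2195 and 1929 RPKM (-0.19). The muscle phosphoglycerate mutase PGAM2 was at 6134 and 5562 RPKM (-0.14), while its broadly expressed paralog PGAM1 was at 22.2 and 20.9. Of the enolases, ENO3 made 99.5% in both libraries, with ENO1 at 55.6 and 51.8 RPKM and the neuronal ENO2 below the filter at 0.458 and 0.688. The sperm paralog GAPDHS was at 0.156 and 0.282 RPKM. GAPDH and ENO3 are thus the forms of their steps that carry nearly all messenger among the forms matched. For TPI1 and PKM no such share can be read, since each was the only gene matched for its step.

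The 4 enzymes among the 7 together with the rest of the list took 7.81% of summed RPKM in control and 7.59% in heat. The list without those 4 took 1.52% and 1.396%. Level and ratio followed the same order only in part. The 2 most abundant enzymes, GAPDH and ENO3, lay closest to 1 among the 8 enzymes of at least 500 RPKM. PKM and TPI1, with mean levels of 3430 and 2983 RPKM, lay farthest below it, while the less abundant PFKM lay between.

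**Figure D3:**
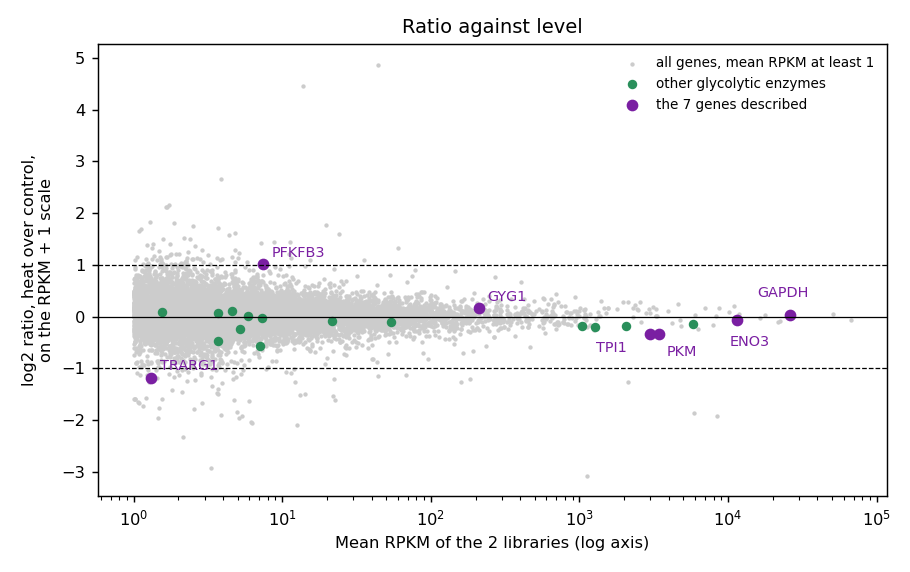
Log2 ratio of heat over control on the RPKM + 1 scale against mean RPKM (log axis) for 13191 genes (grey), with other glycolytic enzymes in green and the 7 genes in purple; dashed lines mark 2-fold. PFKFB3 and TRARG1 sit at or past the 2-fold lines among low genes, where the grey cloud is wide, and PKM (-0.34) and TPI1 (-0.33) sit low among highly expressed genes, of which 4 were at least 2-fold lower.

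Pyruvate, the product of PKM, meets lactate dehydrogenase and pyruvate dehydrogenase. LDHA, the muscle lactate dehydrogenase, was at 5124 RPKM in control and 4489 in heat (log2 ratio -0.19). SLC16A3, the lactate exporter MCT4 of fast fibres, was at 41.4 and 27.8 RPKM, a ratio of 0.672 (0.628 to 0.719). PDK4, the kinase that shuts pyruvate dehydrogenase down, was at 33.8 and 86.1 RPKM (1.32). PDPR, a regulator of the phosphatase that reopens it, was at 3.96 and 5.95 RPKM (0.49). PC, pyruvate carboxylase, was at 26.1 and 20.3 RPKM (-0.35). PDHA1 and PDHB, subunits of pyruvate dehydrogenase, were at 229 and 227 RPKM (-0.01) and at 61.6 and 62.0 RPKM (0.01). Of 16 measured genes of this list (28 listed, 22 matched), 10 were below 0 and 6 above, with a median of -0.03. Over all genes 41.2% were below 0. With the pseudocount of 1 only PDK4 was 1.5-fold higher and none 1.5-fold lower, against 3.44% and 2.37% of all genes. The plain RPKM ratio of PDPR was 1.503. PFKFB3 and PDK4 were the only ones of 145 measured genes of the 9 pathway lists past 2-fold higher on the log2(RPKM + 1) scale. Over all genes the share was 0.629%. PFKFB3 was chosen on this contrast, and the lists with earlier results known, so nothing is read from the count.

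GYG1 (ENSSSCG00000011698) encodes glycogenin, the protein that primes a new glycogen particle by attaching glucose to itself. It read 197 RPKM at 22 °C and 222 RPKM at 30 °C, from no fewer than 7841 and 8549 reads. The heat library was higher by a ratio of 1.13 (1.09 to 1.16, log2 ratio 0.17). That ratio lay inside the range of -0.41 to 0.35 that holds 95% of the 395 genes with a mean of 100 to 500 RPKM. Its paralog GYG2 is not analysed here.

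Genes that extend the primer had no common direction. GYS1, muscle glycogen synthase, was at 93.5 and 80.8 RPKM, a ratio of 0.865 (0.845 to 0.885). GBE1, the branching enzyme, was at 4.18 and 3.59 RPKM with an interval that held 1. UGP2, which makes the UDP-glucose donor, was at 26.9 and 28.6 RPKM.

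On the breakdown side, PYGM, muscle glycogen phosphorylase, was the most abundant gene of the list at 5967 and 6109 RPKM (0.03). CALM3, a calmodulin gene whose product is also a subunit of phosphorylase kinase, followed at 430.2 and 430.7 RPKM. PHKG1, the catalytic subunit of that kinase in muscle, was at 149 and 127 RPKM (-0.23), while its regulatory subunits PHKA1 (144 and 146 RPKM) and PHKB (124.6 and 126.5 RPKM) differed little. The extremes of the list were EPM2AIP1, a partner of laforin (0.40), and PGM2L1, a phosphoglucomutase relative (0.31), at the top, and PPP1R3D (-0.33) and PHKG1 at the bottom. PPP1R3D is a glycogen-targeting subunit of protein phosphatase 1, as is PPP1R3A, the main muscle form, at 173 and 183 RPKM. Of 24 measured glycogen genes (35 listed, 26 matched), 15 were above 0 and 9 below, with a median of 0.02 and none 1.5-fold apart with the pseudocount. That is close to the 58.8% of all genes above 0 and the 3.44% and 2.37% past 1.5-fold. Centred on the median of all genes, 10 were above 0 and 14 below.

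TRARG1 (ENSSSCG00000017801), also known as TUSC5, is a membrane protein of GLUT4 vesicles that takes part in insulin-stimulated glucose uptake and is known mainly from fat. It read 2.21 RPKM at 22 °C and 0.415 RPKM at 30 °C, from as few as 33 and 6 reads. The heat library was lower, at 0.188 of control, and the counting interval from 0.0643 to 0.454 was the widest of the 7 relative to its ratio. On the log2(RPKM + 1) scale the ratio was -1.18, the 47th lowest of 13191 genes, and without a pseudocount it was -2.41. TRARG1 was chosen on this contrast, so nothing is read from its rank. It passed the filter of a mean of 1 RPKM through its control value, and with a pseudocount of 5 its log2 ratio was -0.41. At this depth the gene was barely detected in heat.

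Because TRARG1 is known from fat, adipocyte markers are given beside it. Of 10 listed, 5 were measured, with 3 below 0 and 2 above, against 41.2% of all genes below 0. They summed to 54.2 RPKM in control and 52.7 in heat. PLIN4 made most of both sums, so their likeness does not describe the other markers. CIDEC, a lipid droplet protein of adipocytes, was lowest at 7.56 and 3.48 RPKM (-0.93), followed by PLIN1, the lipid droplet coat protein, at 10.1 and 6.64 RPKM (-0.53). PLIN4 was highest at 33.7 and 39.6 RPKM (0.23), while ADIG rested on at least 3 reads in each library. PPARG, the adipocyte transcription factor, was at 1.89 and 1.86 RPKM. The defining marker genes ADIPOQ, FABP4 and LEP are not analysed here. The part of fat cells in the TRARG1 value was not tested.

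The other genes of GLUT4 traffic lay much closer to 1 than TRARG1. SLC2A4, GLUT4 itself, was at 6.34 RPKM in control and 4.99 in heat, a ratio of 0.787 (0.648 to 0.955). STX4, the surface docking protein for the vesicles, was at 11.1 and 8.38 RPKM (log2 ratio -0.37), the lowest after TRARG1. SORT1, a sorting receptor of vesicle formation, was highest at 4.17 and 6.51 RPKM (0.54), with LNPEP, the aminopeptidase that travels in the same vesicles, next at 7.15 and 8.68 (0.25). RAB10, a vesicle GTPase, at 60.1 and 57.9 RPKM, TRIP10 at 48.2 and 52.7, and the motor MYO1C at 18.5 and 19.04 were the most abundant. TBC1D4, the insulin-controlled brake on vesicle release, was at 13.8 and 15.9 RPKM (0.20). Of 18 measured genes (30 listed, 19 matched), 11 were above 0 and 7 below, with a median of 0.04, against 58.8% of all genes above 0. TRARG1 was the only one 1.5-fold apart with the pseudocount of 1, against 3.44% of all genes higher and 2.37% lower. TRARG1 was chosen on this contrast and passed the level filter through its control value. Nothing is therefore read from that count or from its distance to the other genes. SORT1 passed that fold as a plain RPKM ratio (1.56). Centred on the median of all genes, 8 were above 0 and 10 below. The transporter genes SLC2A1 and SLC2A3 are not analysed here.

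Upstream of that traffic, insulin signalling genes lay near the background of all genes. Of 20 measured (31 listed, 23 matched), 12 were above 0 and 8 below, against 58.8% above 0 over all genes, with a median of 0.09. None was 1.5-fold apart with the pseudocount, against 3.44% of all genes higher and 2.37% lower. INSR, the insulin receptor, was highest at 3.33 and 4.37 RPKM (0.31), and PIK3CA, a catalytic subunit of phosphoinositide 3-kinase, next at 5.69 and 7.23 (0.30). SH2B2, an adaptor of the receptor, was lowest (-0.23), and ENPP1, which binds and restrains the receptor, next (-0.20). AKT2, the kinase that drives GLUT4 release, was the most abundant at 87.2 and 77.5 RPKM, a ratio of 0.889 (0.845 to 0.936), ahead of the phosphatase INPPL1 at 38.3 and 34.03 and the adaptor GRB10 at 29.7 and 35.9. IRS1, the main receptor substrate, was at 28.5 and 30.2 RPKM.

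Of the regulators known to act on glycolytic genes or on glucose use, none reached a 1.5-fold gap with the pseudocount of 1. Over all genes 3.44% were that much higher and 2.37% lower. As a plain RPKM ratio, MLXIPL passed that fold at 0.623 (0.389 to 0.985). HIF1A, the hypoxia factor that drives glycolytic genes, was at 6.89 RPKM in control and 6.96 in heat. PRKAG3, the muscle-specific regulatory subunit of the energy sensor AMPK, was at 68.8 and 62.8 RPKM, a ratio of 0.913 (0.860 to 0.969). MYC, a transcription factor of growth and glycolysis, was highest at 2.66 and 3.94 RPKM (0.43), and ARNT, the partner of HIF1A, next (0.22). MLXIPL, the carbohydrate-responsive factor ChREBP, was lowest at 1.36 and 0.846 RPKM (-0.35), and FOXK2, a regulator of glycolytic genes, next at 65.5 and 55.9 (-0.23). MEF2C, a muscle transcription factor and the most abundant of the list, was at 101 and 89.8 RPKM (-0.17), followed by PRKAB2, an AMPK subunit, at 79.4 and 88.0. Of 24 measured (37 listed, 27 matched), 14 were above 0 and 10 below, near the 58.8% above 0 over all genes, with a median of 0.01. Centred on the median of all genes, 9 were above 0 and 15 below.

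Branches off glycolysis showed no common direction. In the pentose phosphate and hexosamine list 6 of 12 genes were above 0, against 58.8% of all genes, with a median of 0.02. GNPNAT1, a hexosamine enzyme (0.46), and OGA, which removes O-linked N-acetylglucosamine (0.32), were highest, while GFPT2 (-0.38), an isoform of the first hexosamine enzyme, was lowest. The NADH shuttles, which let glycolysis regenerate its cofactor, had 4 of 8 above 0 and a median of 0.01, and centred on the median of all genes 2 above and 6 below. GPD1, the cytosolic glycerol phosphate dehydrogenase, was at 879 and 799 RPKM (-0.14), and its mitochondrial partner GPD2 at 25.6 and 29.4 (0.20). SLC25A13 (0.26) was the highest and SLC25A12 (-0.18) the lowest, although these aspartate-glutamate carriers are close paralogs.

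**Figure D4:**
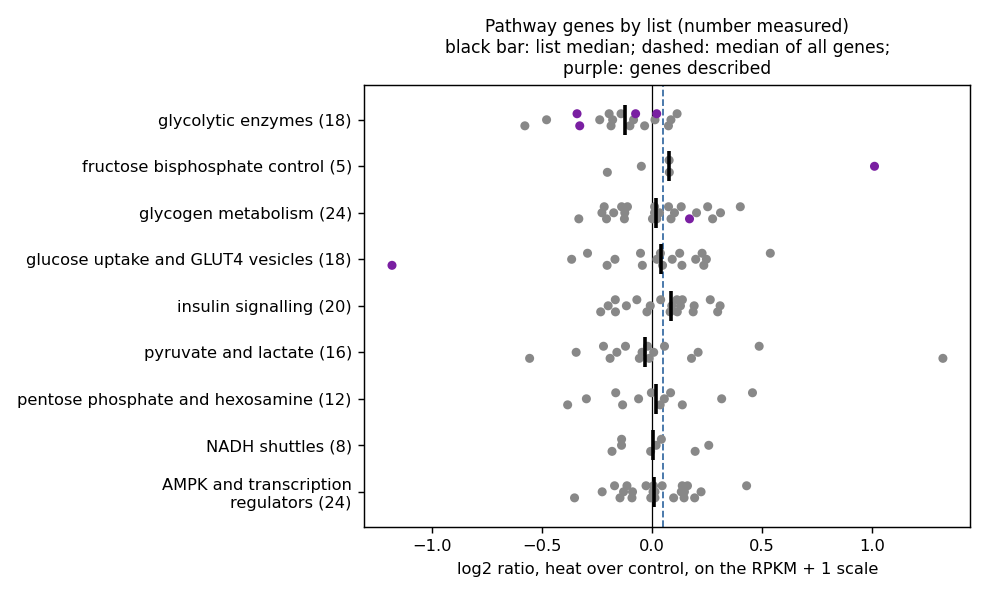
Log2 ratio of heat over control on the RPKM + 1 scale for each measured gene of 9 pathway lists, with the list median (black bar), the median of all genes (dashed, 0.05) and the 7 genes in purple. The glycolytic enzymes have the lowest median, -0.12, and PFKFB3, TRARG1 and PDK4 stand far from the rest of their lists. PFKFB3 and TRARG1 were chosen on this contrast, and the lists with earlier results known.

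Likeness over 2 libraries reduces to a single ratio, so the nearest genes are only named. Among 1694 named genes whose mean level lay within 1.5-fold of PFKFB3, the nearest log2 ratios were those of SNORD21 (0.95), TNNT2 (0.93) and PALS2 (0.73). For TRARG1 they were the small nucleolar RNAs SNORD94 (-1.12), SNORA48 (-1.27) and SNORD97 (-1.05), among 1052 genes. For PKM, among 17 genes, they were TPI1 (-0.33), LDHA (-0.19) and ATP2A1 (-0.13), a calcium pump of fast fibres.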

How the data were processed

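Messenger RNA of 2 libraries was compared, 1 per arm. The authors deposited 1 RPKM value per gene and library. The submitters' processing notes list the Sscrofa10.2 build, Cufflinks 1.3.0, TopHat 1.4.0 and Bowtie without saying what each did. How reads were counted and gene lengths set was not given in the sources used here. Libraries were made, per the labels' protocols, from 3 µg of RNA by poly(A) selection, and no strand marking is described, so overlapping genes cannot be told apart. A gene name table matched 11374 entries to symbols. No sequences or coordinates of the authors' build were used.

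Whole reads were recovered with Python 3.11.15. Library totals were those at which gene lengths came out whole (78.6% of 8192 low genes, against 39.1% at double the total). At a total smaller by a factor of 2, 88.0% came out whole, since dividing the total by a whole number can only raise the share. At the chosen total, 24.6% of genes with an odd length had even reads in both libraries, near the 25% that a correct total gives. Each gene then got the shortest length at which both libraries gave whole reads within 0.001, found for all 13191 genes that average 1 RPKM or more. True reads can be a multiple, so intervals (Clopper-Pearson, 95%) are wide rather than narrow. PCR reads are not independent molecules, and intervals cover counting error only. On simulated data, 99.63% of 13186 genes were recovered up to a common factor.

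With 1 library per arm no test was made. Effects were log2 ratios with a pseudocount of 1. The 7 genes and the 16 gene lists (283 places, 204 matched) were chosen with earlier results of these data known. Named were the 7 genes and their paralogs, the glycolytic enzymes, the 3 most abundant, 2 highest and 2 lowest genes of each pathway list, and the extremes of each marker list. A pair of genes that this rule takes is not reported here. Other genes named were chosen for their known role after their values were seen. Alternatives varied pseudocount, filter and scaling.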

Additional observations from a re-analysis of the deposited data

How the results depend on the processing

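No paired analysis was possible because each arm has 1 library, and leaving out a library was not possible either. In the alternatives run, GAPDH turned direction and the other 6 genes did not. A pseudocount of 5 gave log2 ratios of 0.67 (PFKFB3) and -0.41 (TRARG1), and TRARG1 was at -2.17 with 0.1 and -2.41 with none. Centred on the median, PKM was at -0.39, TPI1 -0.38, GAPDH -0.029, ENO3 -0.12 and GYG1 0.12, and trimmed mean rescaling gave -0.39, -0.38, -0.028, -0.12 and 0.12. Rescaling without the 10 highest genes gave PKM -0.30, TPI1 -0.29, GAPDH 0.065 and ENO3 -0.031. By construction these rescalings shift all genes nearly alike, with shifts of the overall median under 0.1. Summing entries left every value as it was, since each symbol has 1 entry.

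Centring and the trimmed mean each left 3 glycolytic enzymes, 2 shuttle genes and 9 regulators above 0, and 14 glycogen genes below 0. With no filter, 8 glycolytic and 10 pyruvate genes were above 0. With a mean RPKM of at least 5, fewer genes are measured: 2 glycolytic enzymes and 1 fructose bisphosphate gene were above 0, that list had a median of -0.049, and 4 insulin signalling genes and 6 regulators were below 0. TRARG1 did not pass that filter and has no value there. Genes at least 2-fold higher and lower numbered 83 and 77, against 290 and 193 (pseudocount 0.1), 7 and 20 (pseudocount 5) and 17 and 26 (mean of at least 5). At 1.5-fold, 454 and 313 became 934 and 565, 53 and 59, and 97 and 69 in the same order, and 785 and 482 with no filter. Beyond these constructions the cause was not tested. Depth limits TRARG1 most, which may rest on as few as 6 reads in heat.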

Other observations

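Genes next to the 7 on the Sscrofa11.1 assembly were looked up by name only, and were chosen by position, not by value. TRARG1 was not found in that reference, so no neighbours are given for it. PRKCQ, a protein kinase C (5.36 RPKM in control, 5.71 in heat), and RBM17, a splicing factor (20.2 and 21.8), flank PFKFB3 and had log2 ratios of 0.08 and 0.11, where PFKFB3 had 1.01. SPSB2 (274 and 247 RPKM, -0.15) and USP5, a deubiquitinase (21.4 and 17.8, -0.25), flank TPI1 (-0.33). PFN1, the actin-binding protein profilin, lies beside ENO3 and was at 89.1 and 84.3 RPKM (-0.08), near the -0.07 of ENO3. IFFO1 (4.19 and 4.82 RPKM, 0.16) and NCAPD2 (3.01 and 3.11, 0.03) flank GAPDH (0.02). HLTF, beside GYG1 (0.17), was at 1.29 and 1.16 RPKM (-0.09), and CELF6, beside PKM, was listed at 0 in both libraries. One place further out, HEXA near PKM (-0.34) had a log2 ratio of 0.17, and LRRC23 and CDCA3 near TPI1 had 0.11 and 0.21. SFMBT2 and IL2RA, equally far from PFKFB3, had -0.02 and -0.31, so neighbours took either direction. Strand is not known to have been used in the counting, so reads of neighbours that overlap cannot be told apart, and that part was not tested.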
